A study of Mus musculus with 36 samples.

Results

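Degraded and intact RNA from the same kind of mouse cortical culture were compared within batch 2 of the study. The degraded group held the 6 batch 2 libraries whose labelled RNA integrity number (RIN, a score of how whole the RNA is, lower for more broken RNA) was under 3. The intact group held the 12 batch 2 libraries with a RIN of 7.4 or above, so that 18 of the 36 libraries of the study entered the comparison. The labelled RIN ran from 1.4 to 2.7 in the degraded libraries and from 7.4 to 8.7 in the intact libraries. The cells were dissociated embryonic day 18 mouse cortical cells sold under the name C57EDCX, a mixed primary culture and not a clonal line, kept in vitro until treatment began on day 11 and then treated for 72 h. Each treatment gave 2 degraded and 4 intact libraries: untreated cultures given fresh medium (degraded libraries 19 and 20), cultures given 1 µM of the glucocorticoid receptor agonist dexamethasone (DEX; degraded libraries 25 and 26) and cultures given 1 µM DEX with 1 µM of the receptor antagonist mifepristone (DEX + RU-486; degraded libraries 31 and 32). The labels name no reason for the low RIN values and do not say whether the libraries came from separate platings, so that the p-values below measure the spread between these samples, which may be technical.

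RNA breaks down through cleavage by ribonucleases and hydrolysis, and the pieces that a library captures depend on how the RNA was selected: a kit that pulls down poly(A) tails, as the labels name for these libraries, keeps the pieces that still carry a tail. Transcripts also differ in how they resist breakdown, since highly structured RNAs, RNAs packed in ribonucleoproteins and RNAs inside mitochondria or ribosomes are shielded to different degrees. Nascent and intron-derived RNA stays in the nucleus, mature messenger RNA is in the cytosol, and mitochondrial transcripts are made and kept in their own organelle.

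Total counts ran from 12424731 to 36321775 in degraded and from 21333085 to 47326341 in intact libraries. No pair of the 18 libraries was identical. Levels are given in CPM, the count of a gene relative to the size of its library, with library sizes scaled by edgeR's TMM factors. Neuron markers were abundant in both groups: summed over 9 markers they reached 5437 to 10020 CPM in degraded and 2365 to 2655 CPM in intact libraries. Such a sum follows its most abundant members. Singly, 6 markers were higher and 3 lower in degraded libraries (median log2 fold change 0.37, but 0.06 in control cultures alone and -0.56 with library totals alone). No marker of any cell type list was at 0 throughout a group. Library 26 (DEX, RIN 1.4) stood apart from the other 5 degraded libraries in several measures below. TMM factors were 0.459 to 0.851 in degraded and 1.11 to 1.405 in intact libraries, that is, scaling followed RNA integrity. When libraries were scaled by their totals alone, the fold changes of all genes shifted by a median of -0.92 on the log2 scale and 18.7% of called genes changed sign. Every change below is therefore relative to the TMM scaling, and a list whose median lies a little above 0 here lies below 0 under that scaling. Upper-quartile scaling shifted them by 0.13 and turned no call around.

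A set of 3 small RNAs with opposite behaviour is shown first, because they show how far single small RNAs moved in either direction. Their classes were mixed: of 7 small Cajal body RNAs tested 3 fell and none rose, and of 21 small nuclear and signal recognition RNAs 9 rose and 1 fell. By biotype, 9 of 9 microRNAs rose, as did 17 of 32 small nuclear RNAs (4 fell) and 17 of 22 of the misc_RNA class (1 fell). Of 39 small nucleolar RNAs 8 fell and 1 rose. Few annotated members of these biotypes were tested: 9 of 2207 microRNAs, 32 of 1385 small nuclear RNAs, 22 of 562 misc_RNAs and 39 of 1507 small nucleolar RNAs. Their median levels in intact libraries were low, at 0.41, 0.59, 0.88 and 0.20 CPM, so these numbers do not describe whole classes. Over all tested genes 28.4% rose and 26.8% fell. Some small RNAs are copies with identical counts in every library, so the numbers of members may hold repeats. The sequences are those of the GENCODE M21 transcripts on GRCm38, of which the first 300 bases are printed (of 319 in Rpph1, 343 in Gm22009 and 414 in Scarna2), written 5′ to 3′ with G and C in capitals and A and T in lower case. Rpph1 (chr14:50807449-50807767, minus strand) is the RNA of ribonuclease P, which trims transfer RNAs. Gm22009 (chr3:69085105-69085447, minus strand, inside an intron of Kpna4) and Scarna2 (chr3:108554338-108554751, minus strand) are annotated as small Cajal body RNAs, a class that guides the modification of spliceosomal RNAs.
Rpph1: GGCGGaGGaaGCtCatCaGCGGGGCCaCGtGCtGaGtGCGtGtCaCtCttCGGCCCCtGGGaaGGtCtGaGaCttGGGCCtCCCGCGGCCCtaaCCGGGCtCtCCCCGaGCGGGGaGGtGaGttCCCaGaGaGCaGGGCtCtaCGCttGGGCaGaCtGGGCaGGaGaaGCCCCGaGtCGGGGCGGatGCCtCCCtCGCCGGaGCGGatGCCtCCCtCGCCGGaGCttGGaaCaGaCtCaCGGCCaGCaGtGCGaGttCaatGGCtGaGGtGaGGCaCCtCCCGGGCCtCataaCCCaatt
Gm22009: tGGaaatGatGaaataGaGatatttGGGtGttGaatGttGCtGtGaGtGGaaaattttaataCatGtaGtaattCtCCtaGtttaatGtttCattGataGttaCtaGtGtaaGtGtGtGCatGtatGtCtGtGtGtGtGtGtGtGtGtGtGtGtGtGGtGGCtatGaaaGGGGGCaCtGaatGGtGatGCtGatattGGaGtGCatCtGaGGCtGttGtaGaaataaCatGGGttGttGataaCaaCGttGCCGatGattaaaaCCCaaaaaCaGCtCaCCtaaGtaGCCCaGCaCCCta
Scarna2: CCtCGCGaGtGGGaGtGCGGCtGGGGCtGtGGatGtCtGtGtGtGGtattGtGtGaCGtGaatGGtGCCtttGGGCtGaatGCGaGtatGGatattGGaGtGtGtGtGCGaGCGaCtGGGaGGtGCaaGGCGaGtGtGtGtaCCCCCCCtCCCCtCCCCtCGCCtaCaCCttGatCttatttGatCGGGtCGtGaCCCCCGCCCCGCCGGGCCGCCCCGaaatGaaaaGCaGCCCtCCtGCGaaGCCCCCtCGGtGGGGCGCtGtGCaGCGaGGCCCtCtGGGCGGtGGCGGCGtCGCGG
Over the whole transcripts the shares of G and C were 67.1% in Rpph1, 39.4% in Gm22009 and 64.0% in Scarna2, so both members that were lower differed in base composition.

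Rpph1 rose from 125, 282 and 366 CPM (lowest, median and highest) in intact to 453, 1092 and 1547 CPM in degraded libraries, without overlap (log2 fold change 1.93, SE 0.23, adjusted p = 5.8e-07, edgeR). Gm22009 moved the other way, from 12.8, 24.5 and 34.5 CPM in intact to 2.16, 3.40 and 7.34 CPM in degraded libraries (log2 fold change -2.61, SE 0.25, adjusted p = 1.8e-08). The groups did not overlap, whereas those of Scarna2 did (9.90 to 24.05 CPM in intact, 4.72 to 13.6 CPM in degraded libraries, log2 fold change -0.996, SE 0.21, adjusted p = 0.00043; -0.45 in control cultures alone, adjusted p = 0.21). Gm22009 shares its strand with Kpna4, so reads from unspliced Kpna4 RNA cannot be told apart from it.

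Of 20355 genes tested, 5787 were higher (28.4%) and 5449 lower (26.8%) in degraded libraries at an adjusted p under 0.05, with treatment as covariate. With a log2 fold change of at least 1 in size these numbers were 3499 (17.2%) and 2281 (11.2%). The 6 degraded libraries all lay above the 12 intact ones for 1555 genes (7.64%) and all below them for 2283 genes (11.2%). Since 55.2% of all genes moved, the classes below are read against these background shares and against the median log2 fold change over all tested genes, 0.04.

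Measured as a share of all counts, mitochondrial ribosomal RNA displaced nuclear messenger RNA in the degraded libraries. The 2 mitochondrial rRNAs took 43.0%, 52.8% and 66.9% of the counts (lowest, median and highest) in degraded and 19.8%, 30.6% and 35.5% in intact libraries. The groups did not overlap (means 53.1% ± 9.34, SD, n = 6, and 29.4% ± 5.50, SD, n = 12; exact permutation test within treatment, p = 0.000296, the smallest the 3375 arrangements can give, adjusted over 13 classes p = 0.000428). Protein-coding genes of the nuclear genome held 26.7% to 44.4% of counts in degraded and 54.0% to 70.4% in intact libraries (means 37.2% ± 7.15 and 61.0% ± 5.73; the same p). The 13 mitochondrial mRNAs rose in share from 2.05% ± 0.255 to 3.01% ± 0.444, and the groups overlapped because library 19, at 2.28%, lay within the intact range of 1.66% to 2.55%. Degraded libraries were also less even: their 50 most abundant genes held 58.1% to 75.8% of counts against 32.1% to 47.6%, and even among nuclear genes alone the 50 most abundant held 21.4% to 25.5% against 12.9% to 17.5%.

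**Figure D1:**
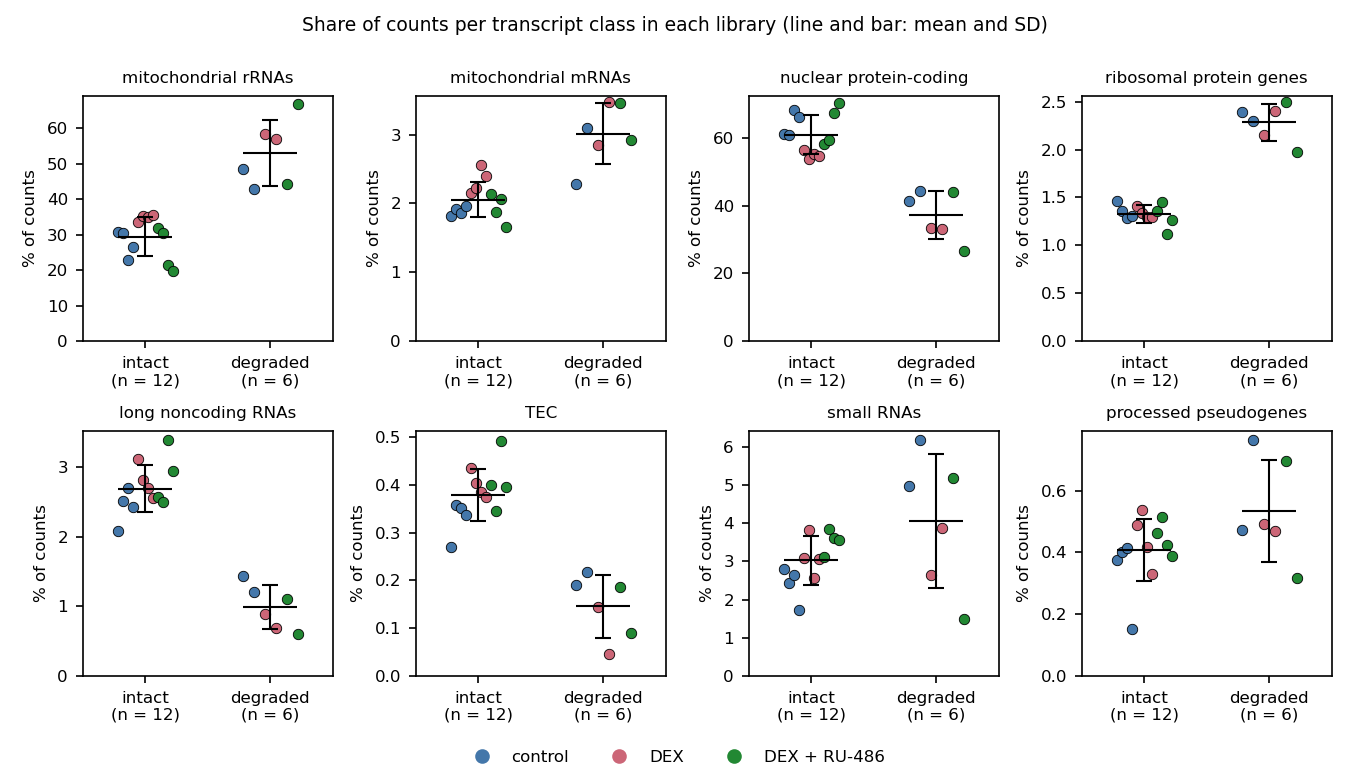
Share of each library's counts (vertical axes, %) on 8 transcript classes in the 12 intact and 6 degraded libraries of batch 2; points are libraries coloured by treatment, lines and bars are the mean and SD. Mitochondrial rRNAs (43.0% to 66.9% against 19.8% to 35.5%) and ribosomal protein genes (1.97% to 2.49% against 1.11% to 1.47%) were higher in every degraded library, nuclear protein-coding genes, long noncoding RNAs and TEC were lower in every one, and small RNAs and processed pseudogenes overlapped.

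Long noncoding RNAs fell to 0.604% to 1.44% of counts from 2.09% to 3.38%, with no overlap (means 0.989% ± 0.320 and 2.69% ± 0.340; exact permutation p = 0.000296). This share is a sum led by abundant RNAs, and the genes counted singly gave shares near or below those over all genes (28.4% higher and 26.8% lower). Of 634 lincRNAs tested 185 were higher (29.2%) and 117 lower (18.5%; median log2 fold change 0.39, 0.44 without library 26, 0.25 without library 20, but -0.52 with library totals alone), and of 849 antisense RNAs 169 were higher (19.9%) and 152 lower (17.9%). The TEC class, a GENCODE label for transcripts that await an experimental test, most of them unspliced, fell to 0.0464% to 0.217% from 0.271% to 0.491%, also with no overlap. For the small RNAs (4.06% ± 1.75 against 3.02% ± 0.630, exact permutation p = 0.0969), the processed pseudogenes (0.535% ± 0.165 against 0.408% ± 0.100, exact permutation p = 0.0741) and the replication-dependent histone genes (0.0917% ± 0.0252 against 0.0855% ± 0.00759, exact permutation p = 0.448) the share of all counts did not pass the test. Library 32 held the lowest share of both small RNAs (1.49%) and processed pseudogenes (0.317%) among the degraded libraries, and also the highest share of mitochondrial rRNA, which takes part in the same total. Without it the differences were 1.55 and 0.170 percentage points and passed the test, as did that of the small RNAs without library 25 (1.32). Taken per count on nuclear protein-coding genes, all of these shares passed the exact permutation test. The differences were 5.48 percentage points for small RNAs (p = 0.000889), 0.739 for processed pseudogenes and 0.103 for replication-dependent histone genes (both p = 0.000296). That denominator itself fell without overlap, from a mean of 61.0% of counts in intact to 37.2% in degraded libraries. A class that merely kept its share of all counts would rise on this measure, so passing it does not show a gain.

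Among nuclear genes the cytosolic ribosomal protein genes (RPGs), which encode the protein part of the ribosome, rose nearly as a whole. RPGs took 1.97%, 2.35% and 2.49% of all counts in degraded and 1.11%, 1.32% and 1.47% in intact libraries, so the gain held even against the larger mitochondrial share (exact permutation p = 0.000296). Of 83 RPGs tested, 80 rose and none fell, against 28.4% and 26.8% of all genes, and for 80 the groups did not overlap (7.64% of all genes); their median log2 fold change was 1.59, and 0.64 with library totals alone. Rpsa, a protein of the small subunit, lay at 3053, 3841 and 6600 CPM in degraded and 580, 925 and 1208 CPM in intact libraries (log2 fold change 2.26, SE 0.12, adjusted p = 7.9e-12). Rplp0, of the ribosomal stalk, rose from 256 to 455 CPM in intact to 1260 to 2178 CPM in degraded libraries (log2 fold change 2.11, SE 0.12). Rps27, whose transcript of 345 bases was among the shortest 3 of the abundant protein-coding genes, rose by 1.51 on the log2 scale (SE 0.12).

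The pseudogenes of these genes moved with them. Of 135 ribosomal protein pseudogenes tested, 102 rose and none fell, with a median of 1.56. The wider class of processed pseudogenes, intronless copies of mRNAs, had 658 higher and 70 lower of 1583 and a median of 0.86 (-0.01 with library totals alone). Rpsa-ps10 lay at 97.0, 126 and 236 CPM in degraded and 5.71, 27.8 and 48.8 CPM in intact libraries, and Tpt1-ps3 at 201 to 363 CPM against 29.2 to 127 CPM. Neither gene had overlapping groups. Pseudogenes and their parents are near copies, and how reads were divided between them by the authors' mapping can set these values, so they are uncertain.

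Other abundant mRNAs of the translation and iron-storage machinery rose as well. Eef1a1 and Eef2, which bring transfer RNAs to the ribosome and move it along the mRNA, rose by log2 fold changes of 1.85 (SE 0.10) and 1.70 (SE 0.09), and Ftl1 and Fth1, the ferritin chains, both by 2.11 (SE 0.12 and 0.11). In each of the 4 genes the lowest degraded library (3681, 1425, 1222 and 667 CPM) lay above the highest intact library (1464, 657, 456 and 245 CPM). Of the 12 metallothioneins and short antioxidant genes, a list that holds the ferritin chains, 9 rose and none fell (median 0.77, but 0.26 in control cultures alone and -0.17 with library totals alone). Of 66 translation factors 27 rose and 17 fell (median 0.11, but 0.01 in control cultures alone and -0.80 with library totals alone), and of 80 mitochondrial ribosomal protein genes 29 rose and 10 fell (median 0.16, but 0.087 without library 19, 0.01 in control cultures alone and -0.80 with library totals alone; library 32 also lowered it when left out). Of 47 proteasome subunit genes 12 rose and 14 fell (median 0.00), against 28.4% and 26.8% of all genes. Nuclear genes of oxidative phosphorylation lay between, with 48 higher and 6 lower of 82 and a median of 0.44. It was 0.23 in control cultures alone and turned to -0.50 with library totals alone.

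All 13 mitochondrial mRNAs rose, with log2 fold changes from 0.83 to 2.17. mt-Cytb, of respiratory complex III, lay at 7499, 11324 and 18237 CPM in degraded and 2152, 2942 and 4413 CPM in intact libraries (log2 fold change 1.91, SE 0.12, adjusted p = 5.4e-11). Of the rRNAs, mt-Rnr1 (chrM:70-1024) rose by 2.21 (SE 0.19) and mt-Rnr2 (chrM:1094-2675) by 1.55 (SE 0.19).

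Histone mRNAs were counted by kind. Replication-dependent histone mRNAs end in a stem-loop and carry no poly(A) tail, and 55 of 63 tested rose while none fell (median 1.26). Hist1h1e, a linker histone, lay at 95.4 to 161 CPM in degraded and 44.1 to 79.7 CPM in intact libraries (log2 fold change 1.11, SE 0.11). Of the 11 polyadenylated, replication-independent histone genes 7 rose (median 0.57, but -0.34 with library totals alone), whereas the most abundant of them, H3f3b and H3f3a, had log2 fold changes of -0.11 (SE 0.09, adjusted p = 0.31) and -0.03 (SE 0.12, adjusted p = 0.87). Histone genes are near copies of each other, so single members are uncertain.

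Immediate early genes, which neurons switch on within minutes of activity, were higher as a group: 17 of 18 rose and none fell, with a median of 1.54. The degraded libraries differed in this: the median gene of the list lay 0.50 to 0.61 above the intact mean on the log2 scale in libraries 19, 25 and 32. In libraries 20, 26 and 31 it lay 1.76 to 2.18 above. Jun, a subunit of the AP-1 transcription factor, lay at 260, 425 and 679 CPM in degraded and 96.6, 122 and 211 CPM in intact libraries (log2 fold change 1.79, SE 0.18, adjusted p = 5.3e-08). Egr1, a zinc finger regulator, lay at 59.0 to 213 CPM against 27.3 to 64.9 CPM, so that the lowest degraded library, library 19, fell within the intact range. Both genes were lowest in libraries 19, 25 and 32, the degraded libraries of RIN above 2, and highest in libraries 20, 26 and 31, those under 2. Of 15 heat shock proteins and chaperones 9 rose and none fell (median 0.62, but -0.30 with library totals alone). Genes of the integrated stress and unfolded protein response had 3 higher and 9 lower of 20 (median -0.30). Hspa5, the main chaperone of the endoplasmic reticulum, lay at 42.3 to 64.5 CPM in degraded and 72.8 to 121 CPM in intact libraries (log2 fold change -0.80, SE 0.07).

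**Figure D2:**
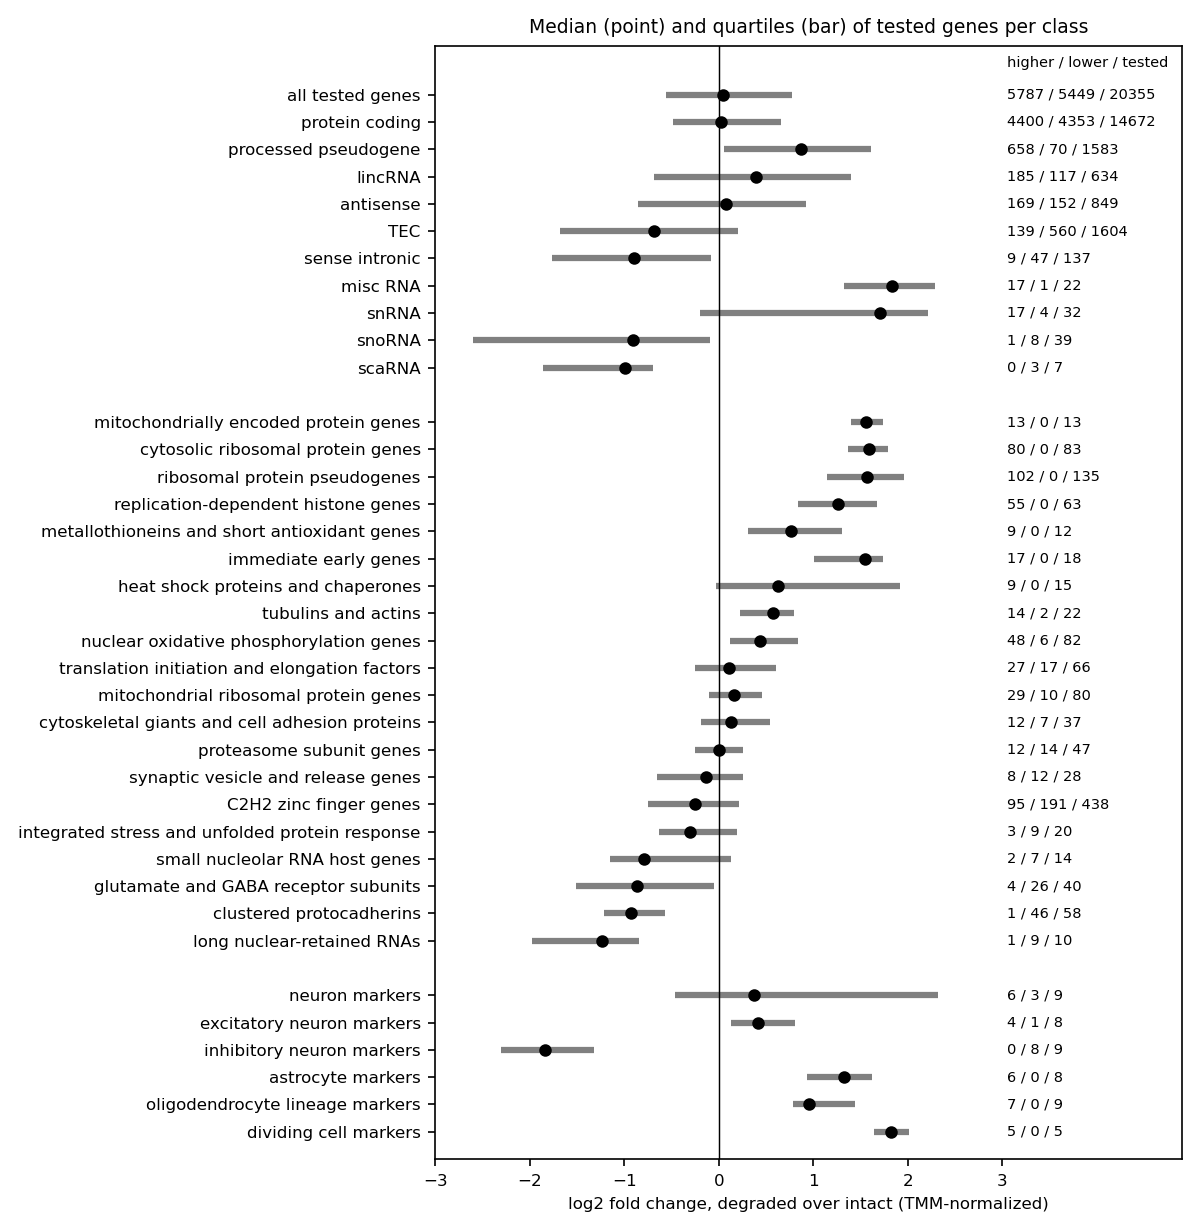
Median (point) and quartiles (bar) of the fitted log2 fold change, degraded over intact, of the tested genes of each biotype, functional list and cell type marker list, with the numbers higher, lower and tested at the right. RPGs (median 1.59), mitochondrial mRNAs (1.55) and immediate early genes (1.54) lay above all genes (0.04), and clustered protocadherins (-0.93) and long nuclear-retained RNAs (-1.23) below; medians between 0 and 0.62, among them oxidative phosphorylation genes (0.44, then -0.50), neuron markers (0.37, then -0.56) and excitatory neuron markers (0.42, then -0.49), and also short antioxidant genes (0.77, then -0.17) and processed pseudogenes (0.86, then -0.01), turned negative with library totals alone.

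Nuclear and unspliced RNAs were among the classes that were lower in degraded libraries. Of 10 long nuclear-retained RNAs 9 fell and 1 rose (median -1.23). Meg3, an imprinted noncoding RNA expressed in neurons, lay at 275, 392 and 463 CPM in degraded and 1148, 1481 and 2229 CPM in intact libraries (chr12:109541001-109571726; log2 fold change -2.02, SE 0.15, adjusted p = 3.7e-10). Kcnq1ot1, which silences its imprinted neighbourhood from the nucleus, lay at 37.5 to 68.7 CPM against 150 to 285 CPM (log2 fold change -1.99, SE 0.14). Neither overlapped. Malat1, the abundant RNA of nuclear speckles, fell by 1.14 on the log2 scale (SE 0.19), and its groups overlapped because library 19 reached 10388 CPM while the other 5 degraded libraries lay between 3774 and 5491 CPM (intact 8683 to 17365 CPM). In control cultures alone its log2 fold change was -0.52 and did not pass (adjusted p = 0.28), against -1.50 in DEX and -1.55 in DEX + RU-486 cultures. Neat1, the scaffold of paraspeckles, fell by 0.74 on the same scale (SE 0.22, adjusted p = 0.0066), but was at -0.14 in control cultures alone (adjusted p = 0.72).

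TEC transcripts fell in 560 and rose in 139 of 1604 cases (34.9% and 8.67%, median -0.69), and sense intronic transcripts fell in 47 and rose in 9 of 137 (median -0.89). These medians rested partly on library 26: its median TEC gene lay -2.89 from the intact mean on the log2 scale, against -0.75 to -0.29 in the other 5 degraded libraries, and its median sense intronic transcript -2.87 against -0.93 to -0.46. Without library 26 the medians were -0.45 and -0.57. Of the TEC transcripts, 975 lay inside a protein-coding gene on its strand without sharing an exon and had a median of -0.98 (-0.70 without library 26), while the 629 elsewhere had -0.29 (-0.13). The median GC content was 40.5% in the former and 44.2% in the latter, and its part in the difference was not tested. For 972 of these the host was tested too, and 688 lay below their host (605 without library 26). Over all 972 the median difference from the host was -0.69 on the log2 scale (-0.40 without library 26), and the hosts themselves had a median of -0.21. The sense intronic transcripts lay below their host in 94 of 130 cases (85 without library 26), and the small nucleolar RNAs, which are cut from introns, in 18 of 22. Reads from the unspliced host and from such a transcript cannot be told apart.

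Of the 8 genes with the largest falls among those without overlap, 5 were TEC or sense intronic transcripts. Gm42664 lies in an intron of Ptbp2 (chr3:119743208-119746446) and dropped from 8.27, 15.5 and 19.6 CPM in intact to 0, 0.974 and 2.25 CPM in degraded libraries (log2 fold change -3.84, SE 0.34, adjusted p = 7.8e-09). Cntnap3, a neuronal adhesion protein of the neurexin superfamily, went from 12.1, 19.97 and 23.8 CPM to 0.286, 0.956 and 2.83 CPM (log2 fold change -3.83, SE 0.31). Nxph2, a neurexophilin, went from 3.48, 13.6 and 19.6 CPM to 0.599, 0.660 and 1.56 CPM (log2 fold change -3.74, SE 0.34). Snhg11, a small nucleolar RNA host gene, went from 33, 59.1 and 76.8 CPM to 2.47, 6.24 and 8.13 CPM (log2 fold change -3.30, SE 0.22). Its list, 14 host genes, held 7 lower and 2 higher (median -0.80). Among the latter was Gas5, at 54.6 to 91.0 CPM in degraded and 53.7 to 68.7 CPM in intact libraries (log2 fold change 0.23, SE 0.09, adjusted p = 0.033, but -0.70 with library totals alone, and no longer called without library 19, 24 or 26).

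The largest rises came from little-studied genes, several of which overlap another gene on the opposite strand. 1700034P13Rik, antisense to Vcpip1, lay at 2.84, 12.3 and 32 CPM in degraded and 0.270, 0.565 and 1.53 CPM in intact libraries (log2 fold change 4.66, SE 0.44, adjusted p = 1.9e-08). Gm26673 (antisense to Kcna6), AC122861.4 (Sart1) and 4932441J04Rik (Pcdh7) followed the same pattern as 1700034P13Rik across libraries: libraries 20, 26 and 31, of RIN under 2, were several-fold above libraries 19, 25 and 32. The strand setting of the counting is not given in the sources used here, so reads from each gene and its partner cannot be told apart. Gm37176 (chr17:51859167-51863217) and AC160336.1 (chr14:44544055-44637201) showed a different pattern. Gm37176 lay at 9.24 to 20.3 CPM against 0.241 to 1.65 CPM, lowest in libraries 19 and 20 and highest in library 26 among the degraded libraries. AC160336.1 lay at 18.3 to 35.7 CPM in 5 degraded libraries but at 3.74 CPM in library 26, near the intact maximum of 3.44 CPM.

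Among neuronal protein-coding genes, receptor subunits and clustered protocadherins were lower as lists, while single mRNAs such as Map2 and Bsn were higher. Of 40 glutamate and GABA receptor subunit genes 26 fell and 4 rose (median -0.86), and of 58 clustered protocadherins, adhesion proteins that give neurons their identity, 46 fell and 1 rose (median -0.93). Protocadherin genes named Pcdha or Pcdhg overlap others of their cluster on the same strand. How shared reads were counted can set their values, so they are not separate measurements and single members are uncertain. Gria1, a subunit of AMPA-type glutamate receptors, lay at 49.2, 57.5 and 82.3 CPM in degraded and 205, 271 and 295 CPM in intact libraries (chr11:57011387-57330244; log2 fold change -2.07, SE 0.11, adjusted p = 4.1e-12). Gria2, its partner subunit, fell by 1.46 (SE 0.10) and Grin2b, of NMDA receptors, by 0.40 (SE 0.09) on the log2 scale, the latter with overlapping groups. The fall of Gria1 was nearly the same in each treatment, at -2.08 in control, -2.09 in DEX and -2.11 in DEX + RU-486 cultures.

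Map2, the dendritic microtubule-associated protein, moved as far in the other direction. It lay at 4001, 5231 and 7782 CPM in degraded and 937, 1095 and 1199 CPM in intact libraries (chr1:66175273-66442583; log2 fold change 2.32, SE 0.09, adjusted p = 1.9e-13). Bsn, a scaffold of the presynaptic active zone with a transcript of 15938 bases, rose from 301, 358 and 440 CPM to 568, 841 and 1345 CPM (log2 fold change 1.30, SE 0.13). Sptbn1, a spectrin, lay at 1127 to 1343 CPM in intact and 1136 to 1348 CPM in degraded libraries (log2 fold change -0.01, SE 0.07, adjusted p = 0.95). Of 37 genes for cytoskeletal giants and adhesion proteins 12 rose and 7 fell (median 0.13, but 0.03 without library 20, 0.01 in DEX + RU-486 cultures alone and -0.79 with library totals alone). Of 22 postsynaptic scaffold and adhesion genes 11 rose and 8 fell (median 0.28, but 0.03 in control cultures alone and -0.65 with library totals alone). Of 104 voltage-gated channel genes 38 rose and 32 fell (median 0.11, but 0.04 without library 26, -0.02 in control cultures alone and -0.80 with library totals alone). Leaving out library 20 also lowered that median. Of 28 synaptic vesicle genes 8 rose and 12 fell (median -0.14, but -0.36 in control and -0.03 in DEX cultures alone). Of 438 C2H2 zinc finger genes 95 rose and 191 fell (median -0.25).

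By length of the annotated transcript the protein-coding genes separated at the short end, and the order at the long end depended on how length was taken. The genes were placed in 10 bins of near equal size. The bin of shortest transcripts (216 to 1254 bases, 1465 genes) had a median log2 fold change of 0.39 with 626 higher and 184 lower. The other bins had medians between -0.10 and 0.09, and the longest bin (6637 to 123179 bases) had 0.02 with 541 higher and 497 lower. With the union of a gene's exons as length the medians ran from 0.46 in the shortest bin to -0.14 and -0.12 in the longest bins, and the longest bin had 443 higher and 610 lower. With coding length the long end went the other way. The median was 0.37 in the shortest bin, between -0.13 and -0.07 in bins 5 to 9, and 0.11 in the longest, with 552 higher and 448 lower. The longest minus the shortest bin was -0.37 with transcript length, -0.59 with the union of exons and -0.60 in genes of 10 CPM or more. Across 14659 genes Spearman's rho between length and fold change was -0.07, a description across genes, which are not independent. The contrast between the longest and shortest bin per library, in mean log2 CPM, was 2.03 ± 0.208 (SD, n = 6) in degraded and 2.17 ± 0.0827 (SD, n = 12) in intact libraries, a difference of -0.13 that did not pass the exact permutation test (p = 0.0584). It ranged from -0.18 to -0.063 when each library was left out in turn, and passed the test without library 20, 31, 21 or 34. Among the 3 shortest abundant genes both directions occurred: Atp5k (371 bases) rose by 1.45 (SE 0.19) and Lyrm9 (341 bases) fell by 0.52 (SE 0.15) on the log2 scale. Syne1, a linker of the nucleus to the cytoskeleton and of 27908 bases, was one of the 3 longest and lay at 96.2 to 228 CPM in degraded and 105 to 179.5 CPM in intact libraries (log2 fold change 0.23, SE 0.16, adjusted p = 0.23; -0.66 with library totals alone, and 0.36 with adjusted p = 0.034 without library 25).

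Base composition separated them along its whole range. The median log2 fold change climbed in every step from -0.49 in the bin of lowest GC content (33.4% to 42.0%; 217 higher and 781 lower of 1464) to 0.46 in the bin of highest (58.6% to 77.4%; 704 higher and 166 lower of 1465), and rho across 14644 genes was 0.29. The climb was present in each quartile of transcript length, from -0.26 to 0.45 in the shortest and from -0.36 to 0.45 in the longest quartile. The number of exons gave a weaker order, from 0.51 in genes of 1 to 3 exons to -0.17 in those of 23 to 347. Per library, the mean log2 CPM of the highest GC bin minus that of the lowest was 0.12, 0.54 and 1.34 (lowest, median and highest) in degraded and -0.51, -0.15 and 0.06 in intact libraries. The groups did not overlap, the difference of means was 0.77 (exact permutation p = 0.000296), and the highest value was again that of library 26, without which the difference was 0.62.

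**Figure D3:**
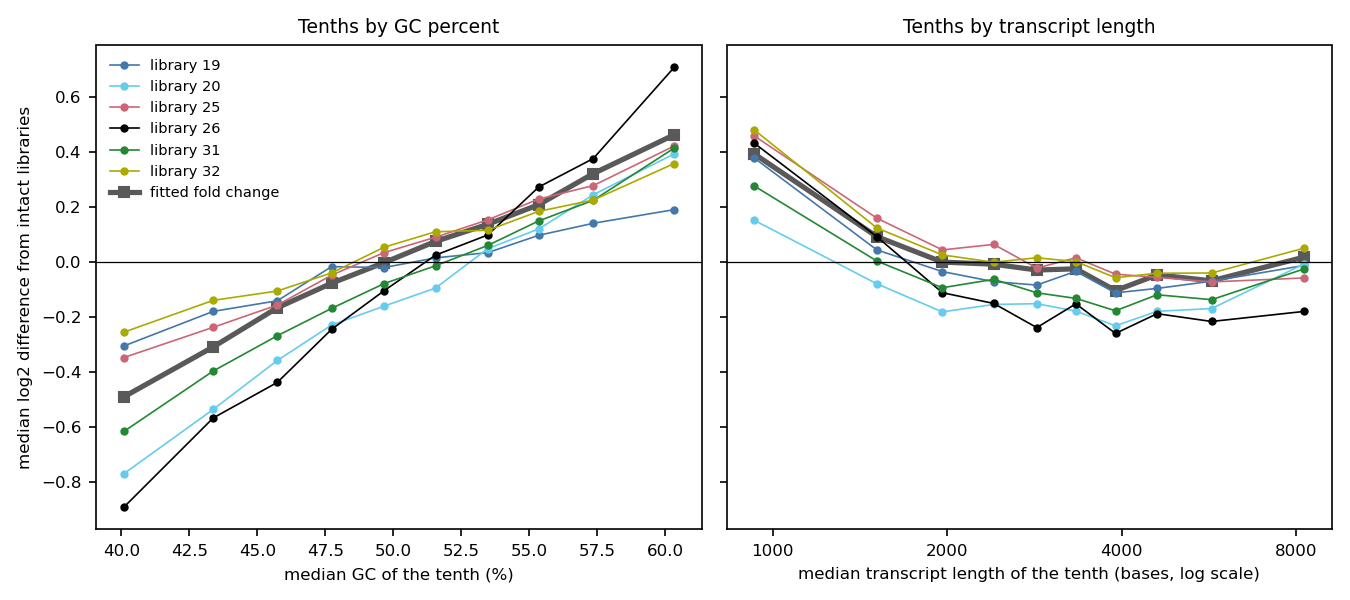
Median log2 difference from the intact libraries (vertical axis) of protein-coding genes in 10 bins by GC content (left, %) and by transcript length (right, bases, log scale); thin lines are the 6 degraded libraries and the thick line the fitted fold change. The fitted line climbs from -0.49 to 0.46 with GC content, whereas by length only the shortest bin (0.39) leaves the range of -0.10 to 0.09.

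Reads over genes that cortical cells are not known to use were taken as a measure of background. Odorant and pheromone receptor genes (1437 genes of the Olfr, Vmn1r and Vmn2r families, together 5333.61 kb of exon) held reads at a density of 63.7, 128 and 221 thousandths of a CPM per kb (lowest, median and highest) in 5 degraded libraries and 7.31, 16 and 23.7 in the intact libraries. Library 26 did not follow, at 3.76, below every intact library. With it included, the difference in log2 density was 2.33 (exact permutation p = 0.00207), and without it 3.19. Of the 1437 receptor genes, 71.9% to 89.7% held reads in the 5 libraries, 4.73% to 60.2% in intact libraries and 5.85% in library 26. Where few genes held the reads they were not evenly spread, whereas the next 2 steps take them as even. Spread over all exons at this density, such reads would make 0.832% to 2.88% of the counts in the 5 libraries and 0.0955% to 0.310% in intact ones. After the density times exon length was taken from each gene's counts, the medians were 1.71 for RPGs, 1.66 for immediate early genes and -0.96 or lower for protocadherins, receptor subunits and nuclear-retained RNAs. They moved from 0.39 to -0.23 for lincRNAs (-0.52 with library totals alone), from 0.79 to -0.06 for collagens (-0.10) and from -0.69 to -1.81 for TEC. With the log2 density as a covariate 3828 genes were higher, against 5787 without it.

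**Figure D4:**
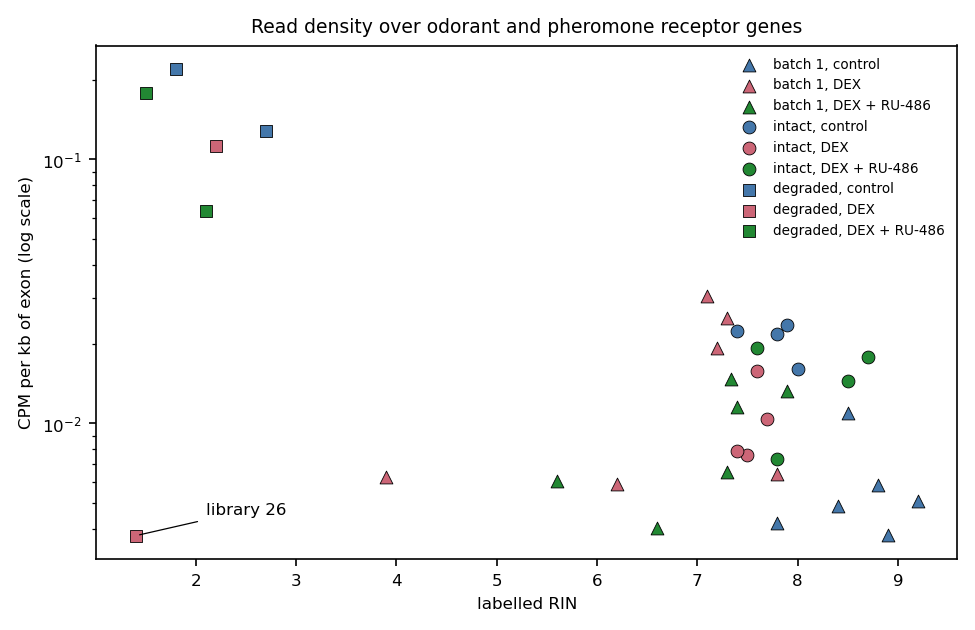
Read density over odorant and pheromone receptor genes (vertical axis, CPM per kb of exon, log scale) against the labelled RIN (horizontal axis) in all 36 libraries; squares are degraded, circles intact and triangles batch 1 libraries, coloured by treatment. Of the degraded libraries 5 lie above all others, while library 26, of the lowest RIN, lies below every intact library.

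Markers of neuron subtypes and of other cell types also differed between degraded and intact libraries. In bulk RNA, fewer cells of a type and less RNA per cell cannot be told apart. Of 9 inhibitory neuron markers 8 fell and none rose (median -1.84), and their summed level was 83.2 to 118 CPM in degraded and 137 to 530 CPM in intact libraries. Gad1, the enzyme that makes GABA, lay at 16.9, 21.6 and 27.1 CPM in degraded and 47.2, 128 and 155 CPM in intact libraries (chr2:70553072-70602014; log2 fold change -2.43, SE 0.21, adjusted p = 6.3e-09). Within the intact group the DEX + RU-486 libraries 35 and 36 stood apart at 47.2 and 52.8 CPM, while the other 10 lay between 122 and 155 CPM. These libraries had the highest RIN of the intact group (8.7 and 8.5). There the median inhibitory neuron marker rose by 1.24 on the log2 scale per RIN unit lost, opposite to the difference between the groups. The fall of Gad1 in degraded libraries was nevertheless present in each treatment taken alone (-2.60 in control, -2.68 in DEX, -2.09 in DEX + RU-486). Sst, a peptide of a class of interneurons, fell by 2.31 (SE 0.33) and Gad2 by 2.41 (SE 0.25) on the log2 scale.

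All 5 dividing cell markers rose (median 1.82), with a summed level of 36.2 to 59.8 CPM against 6.63 to 22.9 CPM. Of 5 neural progenitor markers 2 rose and 3 did not pass the test (median 1.05; 0.10 with library totals alone). Nes, an intermediate filament of neural progenitors and one of the 2, lay at 37.4, 59.9 and 87.5 CPM in degraded and 4.95, 13.9 and 24.5 CPM in intact libraries (log2 fold change 2.22, SE 0.23). Of 8 astrocyte markers 6 rose (median 1.32), but their sum of 32.7 to 108 CPM overlapped the 33.4 to 68 CPM of intact libraries, library 26 was lowest (median 1.49 without it), and the median fell to 0.51 after the receptor gene density was subtracted. Of 9 oligodendrocyte markers 7 rose (median 0.95; 0.22 in DEX cultures alone and 0.01 with library totals alone). The median marker lay at -0.24 in library 20 and -0.03 in library 26 on the log2 scale relative to intact libraries and at 0.40 to 2.06 in the other 4 degraded libraries, with sums of 428 to 2228 CPM against 133 to 1019 CPM. Markers of endothelial cells (4.64 to 21.4 CPM against 2.09 to 3.48 CPM), fibroblasts (4.41 to 16.2 CPM against 0.690 to 4.94 CPM) and microglia (1.50 to 7.19 CPM against 0.920 to 8.01 CPM) stayed low in both groups. Of 6 endothelial markers tested 4 rose and none fell (median 2.07), and of 5 fibroblast markers 3 rose and none fell (median 2.06). Of 6 microglia markers 3 rose and 1 fell (median 1.63). These medians were 0.91, 1.25 and 1.05 after the receptor gene density was subtracted. The part of cell composition in the other results was not tested.

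Genes used as references in quantitative PCR shifted by unequal amounts. Of 14 such genes 5 rose and 6 fell. Gapdh, the glycolytic enzyme, lay at 374, 481 and 600 CPM in degraded and 216, 248 and 276 CPM in intact libraries, with no overlap (log2 fold change 1.00, SE 0.09, adjusted p = 6.8e-09; 0.06 and not called with library totals alone). Tbp, the TATA-binding protein, lay at 7.48, 14.4 and 18.8 CPM against 23.4, 25.8 and 27.7 CPM (log2 fold change -0.88, SE 0.13). Actb, cytoplasmic actin, overlapped at 1854 to 2819 CPM against 1581 to 2244 CPM (log2 fold change 0.26, SE 0.10, adjusted p = 0.024; -0.67 with library totals alone, -0.03 in control cultures alone, and no longer called without library 25 or 32). Tfrc, the transferrin receptor, fell by 1.78 (SE 0.14), and Pfkp, a glycolytic enzyme, fell by 2.65 (SE 0.17), from 407 to 816 CPM in intact to 53.4 to 98.8 CPM in degraded libraries. It had the largest fall of the 23 hypoxia and glycolysis genes, of which 10 rose and 5 fell (median 0.16, but 0.097 without library 19, 0.24 without library 20 and -0.77 with library totals alone). Of 13 targets of the glucocorticoid receptor 7 rose and 1 fell (median 0.44, but 0.26 without library 26 and -0.47 with library totals alone). By treatment that median was 0.03 in control, 0.55 in DEX and 0.15 in DEX + RU-486 cultures. Fkbp5, a chaperone partner of the receptor, rose by 0.76 (SE 0.12; -0.14 with library totals alone), Tsc22d3 fell by 0.69 (SE 0.12) and Sgk1 stood at -0.01 (SE 0.15, adjusted p = 0.94).

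The difference between degraded and intact libraries was present in each treatment. Fitted alone, control libraries gave 3374 genes higher (16.6%) and 3793 lower (18.6%), DEX libraries 1979 (9.72%) and 2206 (10.8%), and DEX + RU-486 libraries 3850 (18.9%) and 4015 (19.7%). A test of the interaction of treatment and integrity found 2 genes (0.00983%) in edgeR, 253 (1.24%) in DESeq2, and 2109 (10.4%) at an unadjusted p under 0.05 in edgeR. Of the genes called over all 18 libraries and named above, Malat1, Neat1, Scarna2, Actb, Gas5, Grin2b, Sst, Tsc22d3, Fkbp5 and Lyrm9 did not pass in at least 1 treatment fitted alone. The median of the RPGs was 1.27, 1.73 and 1.75 in control, DEX and DEX + RU-486 cultures.

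The 18 libraries of batch 1, which the comparison did not use, had no RIN under 3 (3.9 to 9.2, with the next lowest at 5.6). They were fitted with RIN as a number and treatment as covariate. RIN ran with treatment there, at 7.8 to 9.2 in control, 3.9 to 7.8 in DEX and 5.6 to 7.9 in DEX + RU-486 libraries, so the slopes cannot be fully parted from treatment. As RIN fell, 1613 genes rose (7.92%) and 1324 fell (6.5%), the latter 815 without the DEX library of lowest RIN. Of these, 1127 of the rising (69.9%) were also higher in the degraded libraries of batch 2, against 28.4% of all tested genes. Of the falling, 869 (65.6%) were also lower there, against 26.8%. In contrast, 89 rising genes were lower and 69 falling genes higher there. The shared genes made 19.5% and 15.9% of the batch 2 calls. Over all tested genes, called or not, 63.9% had the same sign in both batches. RPGs (59 of 83 rising, none falling), mitochondrial mRNAs (10 of 13), replication-dependent histones (31 of 63) and immediate early genes (13 of 18) rose in both batches. By GC content the median slope ran from -0.08 per RIN unit lost in the lowest bin to 0.05 in the highest, although not every step was upward.

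Other classes differed in how many calls batch 1 gave. Of 1604 TEC transcripts 49 fell and 8 rose there (median -0.20 per RIN unit lost), and of 40 receptor subunit genes 7 fell and 2 rose (median -0.05). Of the long nuclear-retained RNAs none fell and 1 rose in batch 1, Meg3 having a slope of 0.01 per RIN unit lost (adjusted p = 0.95) and Malat1 of 0.16 (adjusted p = 0.22). Gria1 had -0.05 (adjusted p = 0.43). Of the inhibitory neuron markers 3 rose and none fell there, opposite to batch 2, and of the 37 cytoskeletal giants 25 rose and none fell (median 0.18), against 12 and 7 in batch 2; the shortest bin of protein-coding genes had a median slope of 0.02 and the longest of 0.06. Within the 12 intact libraries of batch 2, whose RIN differed little, 66 genes rose (0.324%) and 18 fell (0.0884%) as RIN fell.

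**Figure D5:**
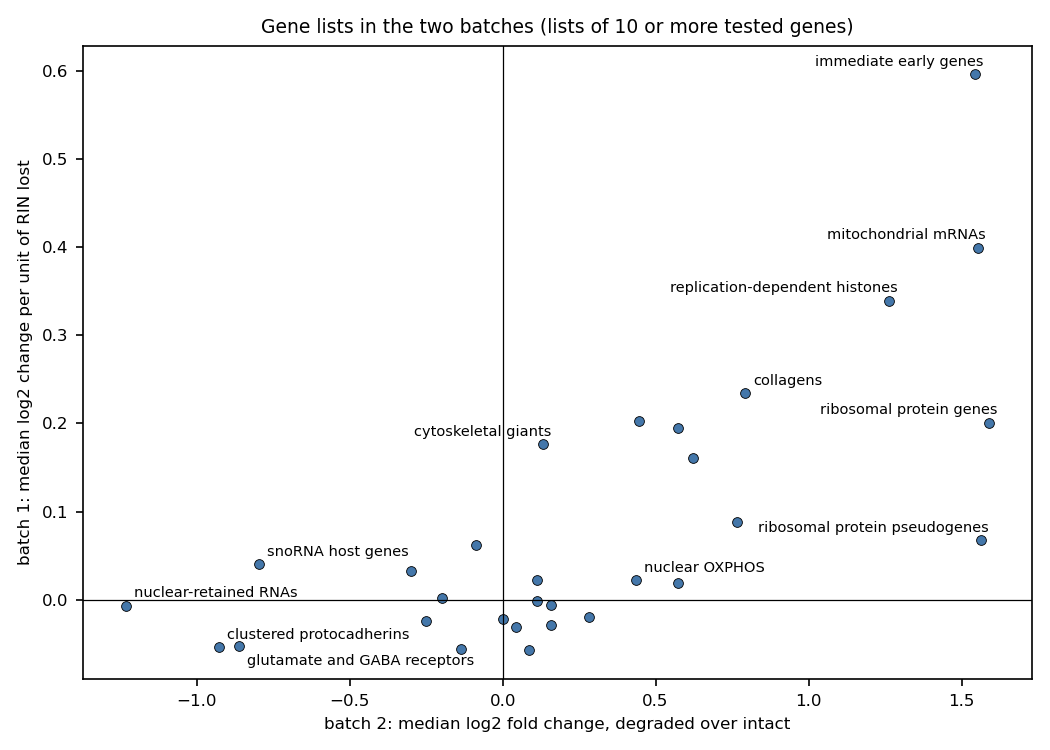
Median log2 fold change of each gene list of 10 or more tested genes in batch 2 (horizontal axis, degraded over intact) against the median log2 change per unit of RIN lost in batch 1 (vertical axis). Immediate early genes (1.54 and 0.60) and mitochondrial mRNAs (1.55 and 0.40) were high on both axes, whereas nuclear-retained RNAs (-1.23 and -0.01) and clustered protocadherins (-0.93 and -0.05) were low in batch 2 and near 0 in batch 1.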

How the data were processed

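The deposited table holds read counts per gene, which the authors made; the submitters' processing notes name HISAT2 2.1.0, Subread 1.5.0-p2 and the build GRCm38. The labels name a poly(A) selection kit, whereas the study's methods speak of total RNA libraries. The methods describe 2 mappings, a standard mapping and a mapping that adds spliced ribosomal protein mRNAs to the genome; which was used for the deposited counts, and the strand setting, are not given in the sources used here. Of 55492 identifiers (5 of them transgene names, left out of tests), 55227 matched GENCODE M21; the unmatched held 0.00689% to 0.0801% of counts.

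Libraries were grouped by labelled batch, RIN and treatment. Genes with a mean above 5 counts over the 36 libraries (20355) were tested on the counts with edgeR 4.0.16 in R 4.3.3 (TMM, quasi-likelihood F test, treatment as covariate, Benjamini-Hochberg adjusted p under 0.05); SEs are the fold change over the root of F. CPM values and per-library scores use TMM, the scores with a prior count of 2. Class shares and scores were tested by permuting degraded labels within treatment (two-sided, numpy 2.4.6 and pandas 2.3.3). Counting error is largest for genes of few counts and was not separated from the spread between libraries. Length and GC are those of the transcript with the longest coding sequence.

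Members, gene lists and tests were chosen with earlier results of these data known. Named genes were the 8 largest rises and 8 largest falls (adjusted p under 0.05, mean of 10 CPM or more in the higher group, no overlap), the up to 3 most abundant members of each list, the reference and receptor target genes, and the 3 shortest and 3 longest genes of 10 CPM or more; from the last groups those named were picked after their values were seen, and a few are not reported here. On simulated counts of 20355 genes for degraded against intact, 100 of 100 genes changed 4-fold and 77 of 100 changed 2-fold were recovered, and 11 unchanged genes were called. No other genes were changed, both directions were equally common, and every gene had the same dispersion. In the data 55.2% of genes were called and scaling followed RNA integrity, so the simulation checks the code and cannot vouch for these calls. Alternatives were DESeq2 1.42.0, other scalings, filters, covariates and length definitions, single treatments and each library left out; the subtraction of receptor gene density and the position of intronic transcripts without library 26 were added after seeing the data.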

Additional observations from a re-analysis of the deposited data

Results flagged for a closer look

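In 132 measures the 6 degraded libraries were searched for a single library far from the other 5 (by Dixon's test of the gap over the range); about 1 in 20 such groups is expected to show such a library by chance, and 11 did. In 8 of the 11 it was library 26, and no explanation was tested.

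Library 26 lay at -8.06 in the log2 of the receptor gene density (others -3.97 to -2.18). Its median gene lay -2.89 from the intact mean on the log2 scale for TEC (others -0.75 to -0.29), -2.87 for sense intronic transcripts (-0.93 to -0.46), -1.0002 for lincRNAs (0.18 to 0.58), -0.81 for processed transcripts (-0.15 to 0.18), -0.89 for transcribed unprocessed pseudogenes (-0.04 to 0.28) and -0.86 for astrocyte markers (1.16 to 2.01). Rpsa-ps10 reached 236 CPM there (97.0 to 133 in the others). Library 19 was high in Malat1, at 10388 CPM (3774 to 5491). Library 32 was low in small nuclear RNAs, at -0.41 (1.41 to 2.48), and library 20 in the quantitative PCR reference genes, at -0.38 (0.04 to 0.18).

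In 2 genes the difference between degraded and intact libraries itself differed between treatments in edgeR's interaction test. Gm14288 (adjusted p = 0.00305) had log2 fold changes of -1.53 in control, -0.76 in DEX and -10.23 in DEX + RU-486 cultures; Gm12397, a processed pseudogene (adjusted p = 0.0438), had -5.53, 0.13 and -0.40. The extreme values come from degraded libraries with 0 counts and depend on the prior count.

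Counts on names of fluorescent protein transgenes, which the comparisons did not use, appeared in degraded but in no intact library of batch 2: egfp had 7 counts in library 20, 13 in library 31 and 1 in library 32, and eyfp 7 in library 20. Batch 1 libraries held up to 12 such counts.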

How the results depend on the processing

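Scaling by library totals alone moved the genes higher from 5787 to 1648 and those lower from 5449 to 11753, and reversed the medians of nuclear oxidative phosphorylation genes (-0.50), replication-independent histones (-0.34), tubulins and actins (-0.41), postsynaptic genes (-0.65), short antioxidant genes (-0.17), heat shock proteins (-0.30), glucocorticoid receptor targets (-0.47), neuron markers (-0.56) and excitatory neuron markers (-0.49), and the genes Actb (-0.67), Gas5 (-0.70), Syne1 (-0.66) and Fkbp5 (-0.14). Without a filter 14257 genes were higher, with receptor gene density as a covariate 3828, in control libraries alone 3374, in DEX libraries 1979 (2206 lower) and in DEX + RU-486 libraries 3850. Leaving out each library in turn gave 5376 to 5936 higher and 5070 to 5607 lower. The interaction had 253 genes in DESeq2's likelihood ratio test against 2 in edgeR. In batch 1, 3163 genes rose and 3018 fell as RIN fell without the treatment covariate, and 815 fell without the DEX library of lowest RIN. The longest minus the shortest bin of transcript length, -0.37 in median fold change (-0.39 to -0.36 with each library left out), was -0.60 in genes of 10 CPM or more and -0.59 with the union of exons as length. The long minus short score passed the test at -0.18 both with a prior count of 5 and with library totals alone (-0.18 to -0.063 with each library left out). Per count on nuclear protein-coding genes, a denominator that itself fell in degraded libraries, 3 shares passed the test. In percentage points the differences were 0.739 for processed pseudogenes, 0.103 for replication-dependent histones and 5.48 for small RNAs. With each library left out the differences in share of all counts were 0.0811 to 0.170 for processed pseudogenes and 0.615 to 1.55 for small RNAs. Actb was -0.034 in control libraries alone. Of the 57 named genes that were run under these alternatives, 57 kept their side of the threshold in DESeq2 and after the receptor gene density was subtracted. The causes of these shifts were not tested. No paired analysis was possible because the labels number libraries across the study and give no replicate number that groups share.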

Other observations

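Grouped by the root of the gene symbol, a grouping chosen after values were seen, some families not described above had few called genes in one direction. Of 20 nucleoporin genes (Nup), which build the nuclear pore, 14 fell and 2 rose (median log2 fold change -0.79), of 19 semaphorins (Sema), guidance cues of axons, 11 fell and 1 rose (-0.63), and of 262 solute carriers (Slc) 124 fell and 35 rose (-0.35). Of 21 palmitoyl transferases (Zdhhc) 13 fell and 1 rose (-0.54). Among families that were higher, 14 of 17 Sox transcription factor genes rose and 1 fell (1.37), and 20 of 36 kinesin genes (Kif), motors of microtubule transport, rose and 4 fell (0.60). Over all tested genes 28.4% rose and 26.8% fell.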
